A study of Mus musculus with 6 samples.

Results

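Conventional CD4 T cells of the mouse liver were taken from single-cell RNA sequencing of 6 animals with steatohepatitis, and 2822 of them were found among 42682 kept barcodes. Cells were chosen by their transcripts, counted as unique molecular identifiers (UMIs). A member held at least 2 UMIs of the CD3 genes Cd3d, Cd3e and Cd3g together and at least 1 UMI of Cd4. It held none of Cd8a, Cd8b1, Foxp3, Trdc, Zbtb16 or Cd163l1, which mark CD8, regulatory, gamma delta and innate-like T cells, and at most 1 UMI of the B cell genes Cd79a and Ms4a1. The remaining 11941 of 14763 barcodes that passed the CD3 and B cell limits are called other T cells. They include 4735 CD8 T cells, 379 Foxp3-positive CD4 cells and 3293 cells that met every condition of the gate but had no Cd4 UMI.

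The knockout group was 3 Stingfl/fl Cdh5-Cre+ mice, in which Cre is driven by the promoter of the endothelial cadherin gene Cdh5. The control group was 3 Stingfl/fl Cdh5-Cre- littermates, which carry the floxed alleles without Cre. All 6 mice ate chow until 8 weeks of age and then received western diet with carbon tetrachloride (WD-CCl4) for 12 weeks, and a 10x Genomics 3′ library was made from each. The study asked how loss of STING, an adaptor that turns cytosolic DNA into interferon and NF-kB signals, from endothelium bears on the liver. The labels call the cells liver sinusoidal endothelial, yet 14763 of the kept barcodes passed the CD3 and B cell limits. Recombination of the floxed alleles in blood cells was not tested. In barcodes with Cdh5, Pecam1 and Kdr UMIs and none of Ptprc or CD3, Sting1 stood at 21.3, 15.2 and 21.9 counts per 1000000 UMIs (CPM) in knockout mice and at 23.4, 26.3 and 26.1 CPM in control mice. Those 2 ranges did not overlap, and whether the 3′ tags come from the floxed part of the gene was not tested.

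CD4 T cells recognise peptide on MHC class II and act mainly through what they give to other cells. CD40 ligand on their surface licenses B cells and dendritic cells, and secreted cytokines define the helper subsets: interferon gamma for Th1, IL-4 and IL-13 for Th2, IL-17A for Th17, and IL-21 for follicular helper cells. In the liver, effector cells that carry the chemokine receptor CXCR6 are retained in the sinusoids, while cells with CCR7 recirculate through lymph nodes.

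The 6 libraries gave 389, 566 and 449 conventional CD4 T cells in knockout mice and 676, 463 and 279 in control mice. Their median depth ran from 5079 to 6353 UMIs per cell, and their summed UMIs from 2177982 to 4560187 per library. On the first principal component of the summed counts, 39.8% of the variance, knockout 1 (-14.9) and control 3 (-10.8) lay apart from the other 4 libraries, which ran from 3.17 to 9.67. Any 2 libraries had from 0.0974% to 0.328% of barcodes in common. The labels name separate mice, so each mouse counted as 1 replicate.

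The helper marker genes Cd40lg, Tnfsf8, Tnfsf11 and Cd28 were higher in conventional CD4 T cells than in the other T cells. Lists of helper subset genes were mixed. The summed Th2 and follicular helper lists were higher in all 6 libraries and the Th17 list in 3 of 6. The Th1 list was lower in all 6, at 2573 to 3376 CPM against 4323 to 8432 CPM in other T cells. A sum is weighted to its most abundant members. In conventional CD4 T cells these were led by Ccl5 in the Th1 list and Gata3 in the Th2 list. The part of single genes in these differences was not tested. Levels are given as CPM of the summed UMIs, and differences as the median over 6 libraries of the log2 difference of CPM plus 1, described without a test because the gate itself chose the cells. Cd40lg (chromosome X, 57212143 to 57224042 on GRCm38), which encodes CD40 ligand, averaged 130 CPM in conventional CD4 T cells and 39.5 CPM in other T cells. Tnfsf8 (chromosome 4, 63831308 to 63861347), encoding CD30 ligand, averaged 523 CPM against 120 CPM. Both were higher in all 6 libraries, with median log2 differences of 1.72 for Cd40lg and 2.07 for Tnfsf8. Tnfsf11 (chromosome 14, 78277445 to 78308043), encoding RANK ligand, averaged 79.8 CPM in conventional CD4 T cells and 26.3 CPM in other T cells. The costimulatory receptor gene Cd28 (chromosome 1, 60716800 to 60773359) differed least, with 1289 CPM against 914 CPM and a median log2 difference of 0.49.

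The distance was widest from CD8 T cells. Cd40lg stood at 130 CPM in conventional CD4 T cells and 7.18 CPM in CD8 T cells, Tnfsf8 at 523 CPM against 41.9 CPM, and Tnfsf11 at 79.8 CPM against 6.67 CPM. The chemokine gene Ccl5 went the other way, with 1105 CPM in conventional CD4 T cells and 7380 CPM in CD8 T cells, as did the granzyme gene Gzmk, with 27.3 CPM against 105 CPM. Foxp3-positive CD4 cells were also set apart, with Cd40lg at 24.2 CPM and Tnfsf8 at 116 CPM. Ikzf2, which encodes Helios and is abundant in regulatory T cells, averaged 369 CPM in conventional CD4 T cells and 1717 CPM in Foxp3-positive cells.

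**Figure D1:**
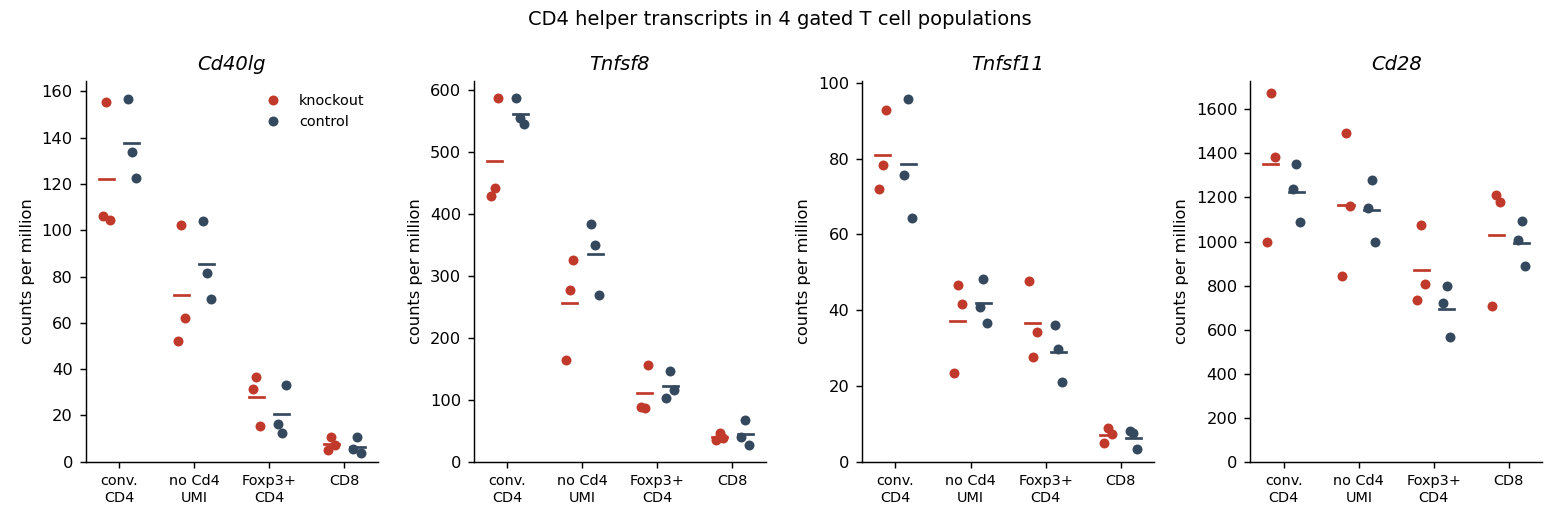
CPM of 4 helper genes in conventional CD4 T cells, cells of the same gate without a Cd4 UMI, Foxp3-positive CD4 cells and CD8 T cells; each point is a mouse and each bar a group mean, with knockout left of control. Cd40lg averaged 130 CPM over 6 mice in conventional CD4 T cells and 7.18 CPM in CD8 T cells, while Cd28 differed far less between the populations.

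Cells just outside the Cd4 limit were intermediate in helper genes. Of the members, 1428 (50.6%) held a single Cd4 UMI, and the 3293 cells just outside the limit had Cd40lg at 81.1 CPM, Tnfsf8 at 304 CPM and Tnfsf11 at 40.1 CPM. Members with 1 Cd4 UMI had 134, 493 and 81.0 CPM of those genes in the same order, and members with 2 or more had 135, 547 and 79.2 CPM. The other limits moved few cells. The 303 members with exactly 2 CD3 UMIs had Cd40lg at 141 CPM, and the 252 cells with 1 CD3 UMI had 123 CPM. The 49 members with 1 B cell UMI had Cd40lg at 125 CPM, and the 9 cells with 2 had 39.7 CPM.

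Among 3770 genes of at least 50 CPM in either population, 1031 were higher and 553 lower in conventional CD4 T cells than in other T cells in all 6 libraries, and 32 and 152 of these differed by more than 2-fold. Beyond the markers, the higher genes included Tbc1d4, a regulator of glucose transporter traffic (229 CPM against 77.6 CPM), and St8sia1, which makes ganglioside GD3 (82.0 CPM against 28.3 CPM). Slamf6, a receptor of helper and progenitor T cells, averaged 89.4 CPM against 32.4 CPM. Il6ra, the IL-6 receptor alpha chain, averaged 123 CPM in conventional CD4 T cells and 48.9 CPM in other T cells. Izumo1r, which encodes folate receptor 4, was higher than in other T cells (60.8 CPM against 25.9 CPM) but lower than in Foxp3-positive cells (114 CPM). The cytokine genes Il2 and Il21, chosen after their values were seen, were low in absolute terms. Il2 averaged 20.5 CPM in conventional CD4 T cells and 6.46 CPM in other T cells, and Il21 averaged 9.84 CPM against 1.02 CPM.

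Dividing cells were a second feature. The proliferation gene Mki67 averaged 152 CPM in conventional CD4 T cells and 59.4 CPM in other T cells, and the mitotic genes Ube2c and Birc5 averaged 111 and 90.8 CPM against 38.6 and 32.4 CPM. The summed level of 22 cell cycle genes lay between 2042 and 3364 CPM in the 6 libraries of conventional CD4 T cells and between 1394 and 1862 CPM in other T cells. In CD8 T cells the sum ran from 1360 to 1935 CPM and in Foxp3-positive cells from 2670 to 4930 CPM. Cells of the same gate without a Cd4 UMI had sums of 1181 to 1777 CPM, at median depths of 4267 to 5528 UMIs against 5079 to 6353 in members, and the part of depth in this was not tested. The genes furthest below other T cells were stromal and mesothelial, such as the complement gene C3 (31.5 CPM against 468 CPM) and decorin, Dcn (14.6 CPM against 264 CPM). A list of stromal, biliary and mesothelial markers summed to between 35.5 and 187 CPM in conventional CD4 T cells and between 431 and 1850 CPM in other T cells. Neither gate set a limit on such transcripts, and their part in the difference was not tested.

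Helper subset genes were spread unevenly. A UMI of Tbx21, the Th1 regulator T-bet, was found in 50.4% of conventional CD4 T cells, of Ifng in 50.1%, of the Th2 regulator Gata3 in 58.0% and of Ccl5 in 47.7%. In B cells without CD3 UMIs, where median depth was 4571 to 6230 UMIs per library, the same genes were found in 5.75%, 1.95%, 1.63% and 7.28% of cells. Il17a was found in 124 cells (4.39%, against 0.088% of B cells) and Il23r, a receptor chain of Th17 cells, in 191 cells (6.77%, against 0.213% of B cells). Il4 was found in 62 cells and Il13 in 6. The follicular genes Bcl6 and Cxcr5 were found in 31.2% and 9.64% of members, and B cells express both, so no background share can be read for them.

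When each cell was thinned to 1500 UMIs, which left out 5 knockout and 7 control cells, Ifng was found in 31.2 ± 2.02% of knockout cells and 28.2 ± 4.59% of control cells (SD, n = 3 each). Gata3 was found in 29.9 ± 2.83% of knockout cells and 25.4 ± 4.08% of control cells, and Ccl5 in 32.7 ± 4.40% against 38.2 ± 4.09%. Tbx21 stood at 25.3 ± 1.71% in knockout cells and 25.0 ± 3.65% in control cells. At this depth the only gene of the 17 whose groups did not overlap was the chemokine receptor Cxcr3, with 10.0 ± 0.164% of knockout cells and 8.59 ± 1.16% of control cells. Its exact two-sided permutation p was 0.1, the smallest that 3 against 3 mice allow, and 0.773 after Benjamini-Hochberg adjustment over the 17 genes. For the other 16 genes the exact permutation p lay between 0.2 and 1. Which gene stood apart moved with depth. Cxcr3 overlapped at 1000 UMIs, at 3000 UMIs and without thinning. At 1000 UMIs only Il4 did not overlap, with 0.914 ± 0.549% of knockout cells and 0.340 ± 0.115% of control cells, and at 3000 UMIs only Gata3 did not, with 44.2 ± 3.59% against 37.8 ± 3.15% (SD, n = 3 each; exact permutation p = 0.1 for each, not adjusted).

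**Figure D2:**
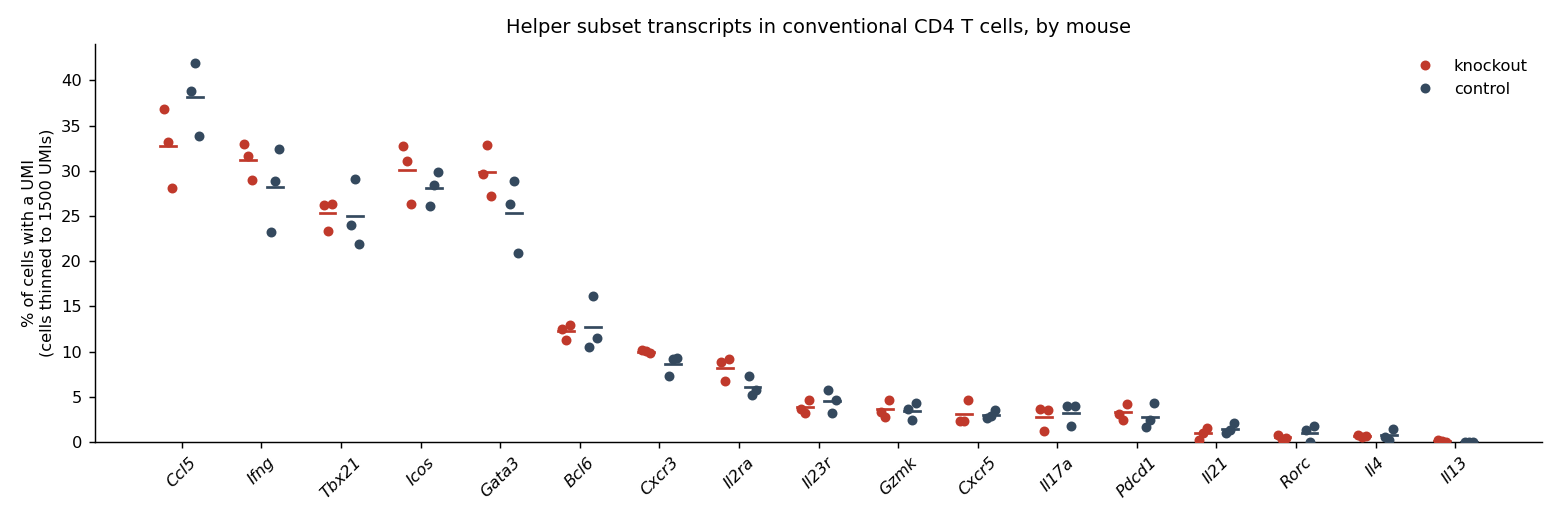
Percentage of conventional CD4 T cells with a UMI of each of 17 helper subset genes after thinning to 1500 UMIs per cell; each point is a mouse and each bar a group mean, with knockout left of control. Ccl5, Ifng, Tbx21, Icos and Gata3 were frequent, Il17a, Il4 and Il13 rare, and at this depth the groups overlapped for every gene but Cxcr3.

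Co-detection separated a small Il17a population from the Ifng cells. Of the 124 cells with an Il17a UMI, 75 (60.5%) also held Il23r, where independence of the 2 genes over all members would give 8.39 cells. Ifng and Il17a met in 27 cells, against 62.1 under independence, and Ifng and Il23r in 34 cells, against 95.6. Tbx21 and Ifng met in 999 cells, against 712, and Ccl5 and Ifng in 920, against 673. Tbx21 and Gata3 met in 843 cells, close to the 825 under independence. These are descriptions without a test, since cells of a library share their source and deeper cells hold more of every gene.

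Cells with and without a Cxcr6 UMI were compared with each other. Of the members, 883 (31.3%) held at least 1 Cxcr6 UMI and 1939 (68.7%) held none. In B cells without CD3 UMIs the share with a Cxcr6 UMI was 0.463%. Median depth per library was 5500 to 6919 UMIs in cells with Cxcr6 and 4912 to 5846 UMIs in cells without, and cells that carry the transcript undetected cannot be told apart from cells that lack it. Il17a averaged 162 CPM in cells with Cxcr6 and 32.0 CPM in cells without, and Il23r averaged 99.1 CPM against 37.5 CPM. Nkg7, a cytotoxic granule gene, averaged 300.04 CPM against 170.3 CPM. Itga1, the integrin CD49a chain of tissue-resident lymphocytes, averaged 32.6 CPM in cells with Cxcr6 and 13.5 CPM in cells without, and S100a4, a calcium-binding protein gene of memory cells, averaged 917 CPM against 505 CPM. Mki67 averaged 213 CPM against 117 CPM. Each of these was higher in cells with Cxcr6 in all 6 libraries, and Itga1, S100a4 and S1pr1 were chosen after their values were seen. Of the 20 members of the list of resident and effector genes, 14 were higher in all 6 libraries and 6 were mixed, with a median log2 difference of 0.36. Among 3654 genes of at least 50 CPM, a limit not set for the list, 523 were higher in all 6. Cxcr6 was not left out of these counts, and any list that holds it gains that member from the split itself.

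Of the 12 members of the list of naive and recirculating genes 10 were lower in cells with Cxcr6 in all 6 libraries, where 482 of 3654 genes of at least 50 CPM were, and 2, Il7r and Satb1, were mixed. The list's median log2 difference was -0.79, against -0.01 over the genes of at least 50 CPM. The list was counted without that limit, and its member Igfbp4 lay under it, so the 2 sets of genes differ in level. Ccr7 averaged 13.0 CPM in cells with Cxcr6 and 75.0 CPM in cells without. Lef1 and Tcf7, regulators of naive and memory T cells, averaged 194 and 228 CPM in cells with Cxcr6 and 337 and 347 CPM in cells without. Cxcr5, the follicular homing receptor, averaged 7.73 CPM against 32.3 CPM, and S1pr1, the receptor for lymph node exit, averaged 87.4 CPM against 123 CPM. Klf2, a regulator of lymphocyte egress, averaged 851 CPM against 1062 CPM, and Igfbp4 6.22 CPM against 26.9 CPM. These 7 were lower in cells with Cxcr6 in all 6 libraries. Satb1 was lower in 5 of 6, with 189 CPM in cells with Cxcr6 and 264 CPM in cells without. Ifng was higher in 5 of 6 libraries, with 489 CPM in cells with Cxcr6 and 318 CPM in cells without. Ccl5 differed little, with 1209 CPM against 1052 CPM. The gene of CD30 ligand did not follow this axis, since Tnfsf8 averaged 521 CPM in cells with Cxcr6 and 523 CPM in cells without, with 3 libraries higher and 3 lower.

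**Figure D3:**
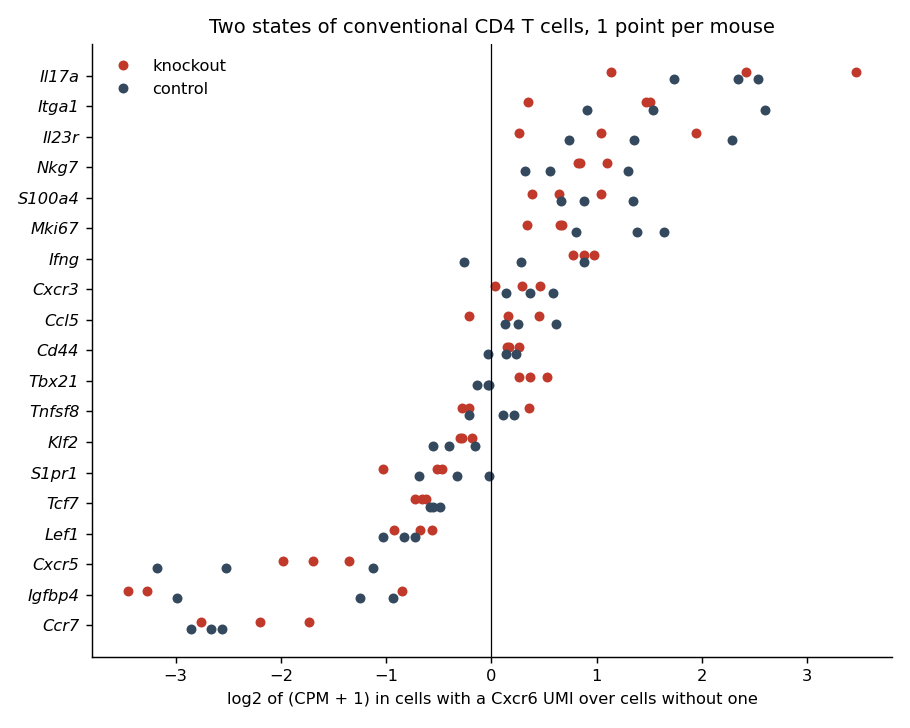
Log2 of CPM plus 1 in cells with a Cxcr6 UMI over cells without one, for 19 genes; each point is a mouse. Il17a, Itga1 and Nkg7 lie above 0 in all 6 mice, Lef1, Cxcr5 and Ccr7 below 0 in all 6, and Tnfsf8 on both sides.

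The share of conventional CD4 T cells did not differ detectably between knockout and control mice. They made up 17.2%, 23.6% and 18.1% of gated T cells in knockout mice and 18.0%, 17.2% and 23.9% in control mice. The means were 19.6 ± 3.44% and 19.7 ± 3.70% (SD, n = 3 each; exact two-sided permutation p = 1). Of all kept barcodes they were 6.82 ± 1.70% in knockout mice and 6.43 ± 1.74% in control mice (exact permutation p = 0.7).

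Cells with a Cxcr6 UMI were 35.5%, 32.7% and 29.4% of the members in knockout mice and 29.7%, 29.4% and 32.6% in control mice. The means were 32.5 ± 3.04% and 30.6 ± 1.78% (SD, n = 3 each), and the exact two-sided permutation p was 0.4. After thinning to 1500 UMIs the shares were 12.8 ± 2.39% in knockout mice and 10.8 ± 0.0614% in control mice and the groups did not overlap, with an exact permutation p of 0.1, the smallest possible. At 3000 UMIs they overlapped, with 21.1 ± 2.37% against 19.0 ± 0.536% (exact permutation p = 0.4).

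No gene differed between knockout and control conventional CD4 T cells at an adjusted p under 0.05 in edgeR's quasi-likelihood test with Benjamini-Hochberg adjustment, out of 10251 tested (0% called). At an unadjusted p under 0.05 there were 207 higher (2.02%) and 248 lower (2.42%) genes, 4.44% of those tested in all, and DESeq2 called 8 genes (0.078%), all lower, among them Fscn1, H2-Eb1, Cd74, Gm10076 and Ccl4. Sting1 itself stood at 18.6, 17.5 and 13.7 normalised CPM in knockout cells and at 16.0, 17.2 and 20.2 normalised CPM in control cells. Its log2 fold change was -0.09 (SE 0.204), so these T cells showed no detectable difference in the targeted gene. The normalised CPM given for this contrast are scaled by the TMM method.

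Interferon-stimulated genes, which are induced by type I and type II interferon, stood lower in the knockout as a group. Of 39 tested members of a list of 46, 37 had a negative log2 fold change and 2 a positive one, while 48.4% of all tested genes were negative. None passed the adjusted threshold. In edgeR's test 10 (25.6%) had an unadjusted p under 0.05, all of them lower. Of all tested genes 4.44% had such a p in either direction and 2.42% on the lower side. With no filter on low counts 41 of 44 were negative, and 2 further members, Mx1 and Mx2, were not among the features used here. The list's median log2 fold change was -0.25, against 0.01 over all genes tested. Of the tested members 10, or 25.6%, had non-overlapping groups and every one of these was lower, where 4.55% of all tested genes were lower without overlap and 9.54% had no overlap in either direction. The summed level was 1786, 1621 and 1505 CPM in knockout mice and 1886, 2114 and 1910 CPM in control mice, so each knockout mouse lay below each control mouse.

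Oasl1, an interferon-induced protein of the OAS family, had the smallest p of the list. It stood at 4.08, 0.727 and 2.22 normalised CPM in knockout mice and at 7.54, 16.2 and 7.05 normalised CPM in control mice. The groups did not overlap, and the log2 fold change was -2.22 (SE 0.540, unadjusted p = 0.00176 and adjusted p = 1 in edgeR's model). It rested on 117 UMIs in 54 cells, 42.7% of them in 5 cells. Ifih1, the double-stranded RNA sensor MDA5, stood at 38.2, 48.0 and 62.5 normalised CPM in knockout mice and at 59.9, 110 and 91.2 normalised CPM in control mice, with a log2 fold change of -0.80 (SE 0.240). Ifi27l2a and the AIM2-like receptor gene Ifi203 had log2 fold changes of -0.52 (SE 0.208) and -0.29 (SE 0.109). Among members chosen after their values were seen, Usp18 and Ifit2 had log2 fold changes of -0.76 and -0.68, and Isg20 was 1 of the 2 with a positive value, 0.40.

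The list was also counted in parts of the members and in other T cells, and the source of its lower level was not tested. Without the 1105 members (39.2%) that held a UMI of a dendritic or macrophage marker (Cd74 and Bst2 left aside and Fscn1 added, an alternative chosen after seeing the data), 32 of 35 tested genes of the list were negative and the median was -0.23. Without the cells of highest doublet score it was -0.22 over 39 genes. In cells with a Cxcr6 UMI 24 of 33 tested genes of the list were negative (median -0.11), and in cells without one 33 of 37 (median -0.30). In other T cells of the same mice 29 of 44 were negative, with a median of -0.10.

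Heat shock genes, which encode protein-folding chaperones and are induced by protein-damaging stress, also stood lower. Of 20 members 18 had a negative log2 fold change, against 48.4% of all tested genes, and the median was -0.26. In 8 (40.0%) the knockout was lower with no overlap, against 4.55% of all tested genes. None passed the adjusted threshold. Their summed level was 17253, 15803 and 17714 CPM in knockout mice and 19729, 22092 and 19835 CPM in control mice. Hspa1b stood at 1628, 2247 and 1708 normalised CPM in knockout mice and at 2337, 3720 and 2629 normalised CPM in control mice, a log2 fold change of -0.64 (SE 0.200), which was -0.41 without control 2. Its near-identical copy Hspa1a makes the assignment of reads between these genes uncertain. The mitochondrial chaperonin gene Hspe1 had a log2 fold change of -0.39 (SE 0.141). In other T cells 19 of 20 were negative with a median of -0.26, close to the value in conventional CD4 T cells.

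Th2 genes leaned upward. All 8 tested members of a list of 12 had a positive log2 fold change, with a median of 0.40, and 3 of them (37.5%) were higher with no overlap, where 4.99% of all tested genes were. None passed the adjusted threshold. The 4 members under the filter on low counts included Il13 and Il5, with 13 and 6 UMIs over all libraries, and without that filter 11 of 12 were positive. Il4 stood at 11.5, 5.33 and 14.8 normalised CPM in knockout mice and at 4.80, 2.32 and 3.29 normalised CPM in control mice, a log2 fold change of 1.52 (SE 0.428). Pparg, a nuclear receptor of Th2 and regulatory cells, had 18.2, 13.3 and 14.4 normalised CPM in knockout mice and 8.00, 8.95 and 2.35 in control mice, a log2 fold change of 1.17 (SE 0.351). Il1rl1, the IL-33 receptor chain ST2, had a log2 fold change of 0.47 (SE 0.186). Gata3 itself overlapped, with 250, 322 and 240 normalised CPM in knockout mice and 229, 262 and 191 in control mice. The share of cells with an Il4 UMI also overlapped, at 2.66 ± 1.04% in knockout mice and 1.75 ± 0.645% in control mice (SD, n = 3 each; exact permutation p = 0.4). Thinned to 1500 UMIs it was 0.660% in knockout mice and 0.750% in control mice, the opposite direction, and at 1000 UMIs 0.914% against 0.340% with no overlap.

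Th17 genes were divided, with 5 positive and 7 negative of 12 tested and a median of -0.58. Il23r (chromosome 6, 67422932 to 67491855) stood at 36.7, 24.0 and 65.8 normalised CPM in knockout mice and at 91.4, 69.6 and 69.1 normalised CPM in control mice. The groups did not overlap, though knockout 3 lay just below control 3. The log2 fold change was -0.89 (SE 0.331, unadjusted p = 0.0276 and adjusted p = 1 in edgeR's model), and -0.43 without the members that held a dendritic or macrophage marker UMI. It was -0.59 without knockout 2 and -1.36 without knockout 3. Il17a ranged widely, with 79.1, 20.6 and 79.5 normalised CPM in knockout mice and 91.6, 35.5 and 172 in control mice. In other T cells the log2 fold change of Il23r was -0.81 (SE 0.182), and the difference between the populations was -0.11 (SE 0.543).

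Several lists of T cell function had medians close to that of all genes. The Th1 list had 6 positive and 7 negative of 13 (median -0.02) and follicular helper genes 6 and 5 of 11 (median 0.01). Ifng stood at 452, 381 and 397 normalised CPM in knockout mice and at 282, 383 and 394 in control mice, a log2 fold change of 0.22 (SE 0.146), which was 0.08 without control 1. The cell cycle list was split evenly, with 11 and 11 of 22. Of 20 genes of T cell receptor signalling 15 were positive, with a median of 0.06, and the kinase gene Prkcq had a log2 fold change of 0.30 (SE 0.114). NF-kB feedback and immediate early genes leaned lower, with 13 of 17 negative (76.5%, median -0.11) and 18 of 25 (72%, median -0.07). Both shares were above that of all tested genes, given with the interferon-stimulated list. Of 12 genes of the STING pathway 6 were positive and 6 negative, with a median of 0.00.

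Naive and cytotoxic lists held single genes that parted from the rest. Ccr7, the lymph node homing receptor, stood at 53.1, 40.0 and 37.7 normalised CPM in knockout mice and at 73.6, 57.4 and 57.3 in control mice, a log2 fold change of -0.54 (SE 0.174), while 7 of the 12 naive genes were positive. Igfbp4 had a log2 fold change of 0.73 (SE 0.257), which was 0.48 without knockout 3, 0.17 without the cells of highest doublet score and 0.11 without members holding a dendritic or macrophage marker UMI. The chemokine gene Ccl4 stood at 106, 73.7 and 119 normalised CPM in knockout mice and at 156, 159 and 196 in control mice. Its log2 fold change was -0.78 (SE 0.175) and became 0.02 without the cells of highest doublet score, which held 759 of its 2492 UMIs. Klrg1, an inhibitory receptor of effector cells, was positive at 0.76 (SE 0.227), and at 1.70 without members holding a dendritic or macrophage marker UMI. Of 40 ribosomal protein genes 19 were positive and 21 negative, and Rps29 and Rpl35 had log2 fold changes of -0.76 (SE 0.213) and -0.67 (SE 0.172). Without control 1 that of Rps29 was -0.45.

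**Figure D4:**
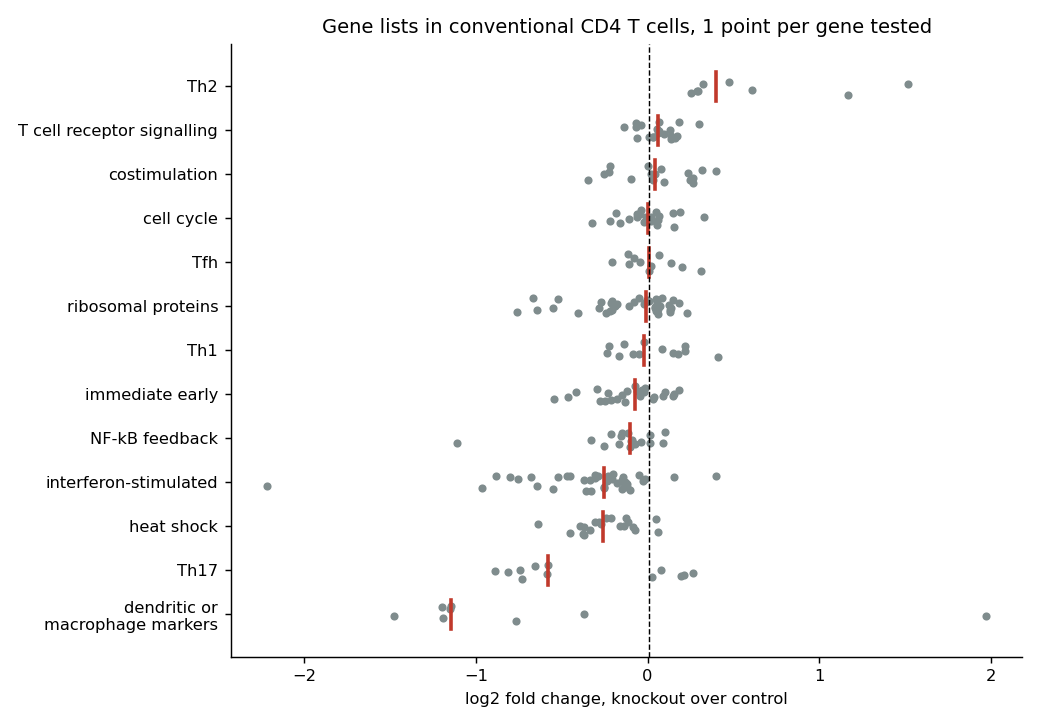
Log2 fold change, knockout over control, of every tested gene in 13 lists; red bars are list medians and the dashed line is the median of all 10251 genes. Interferon-stimulated genes (median -0.25) and heat shock genes (median -0.26) lie mostly left of the line, all 8 Th2 genes right of it, and Th1 and cell cycle genes on both sides.

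The gene of smallest p was Fscn1, which encodes the actin bundler fascin and is abundant in mature dendritic cells. It stood at 0.742, 0.727 and 2.96 normalised CPM in knockout mice and at 13.9, 9.62 and 16.0 normalised CPM in control mice, a log2 fold change of -3.20 (SE 0.463), with an adjusted p of 0.171 in edgeR's model. Its 137 UMIs came from 24 cells, 5 of which held 76.6%. Among 8 tested dendritic or macrophage markers, of 18 in the list, 7 were also negative, with a median of -1.15, and their summed level was 336 to 455 CPM in knockout mice and 515 to 1144 CPM in control mice. H2-Eb1, an MHC class II chain, stood at 29.0, 36.6 and 25.9 normalised CPM in knockout mice and at 60.8, 62.0 and 139 in control mice, and Cd74, the invariant chain, had a log2 fold change of -1.14 (SE 0.325). Without the members that held such a marker, Cd74 had a log2 fold change of 0.12. Of the 18 markers 2 were at 0 in every library.

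Markers of other cell types leaned up or down by list in their log2 fold changes. Many of them fell under the filter on low counts, and their part in the results above was not tested. All 5 tested neutrophil markers of 8 were positive (median 2.08), with summed levels of 10.0 to 1182 CPM in knockout mice and 12.7 to 528 CPM in control mice. All 5 tested endothelial markers of 12 were negative (median -1.32), with sums of 394 to 447 CPM against 361 to 521 CPM. Of 5 tested B and plasma cell markers of 12, 4 were negative (median -0.89), with sums of 275 to 822 CPM in knockout mice and 230.03 to 998 CPM in control mice. Of 8 tested NK and ILC1 markers of 12, 6 were negative (median -0.37), with sums of 96.6 to 134 CPM against 130.4 to 169 CPM. Hepatocyte markers were positive in 3 of 4 (median 0.43) and stromal, biliary and mesothelial markers in 3 of 3 (median 0.42), with sums of 36.8 to 59.2 and 85.5 to 187 CPM in knockout mice and 11.4 to 71.2 and 35.5 to 131 CPM in control mice. CD8 markers, which the gate limits, were positive in 2 of 3 (median 0.44). Summed levels of the groups overlapped for each of these lists.

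Other genes of small p were carried by more cells than the 24 of Fscn1, from 45 for Dnase1l3 to 1714 for Gm10076. Lrrk1, a kinase gene, stood at 10.0, 11.2 and 11.1 normalised CPM in knockout mice and at 20.6, 20.6 and 23.0 in control mice, a log2 fold change of -0.98 (SE 0.195), with an adjusted p of 0.771 in edgeR's model. The metallothionein gene Mt1, which binds zinc, stood at 40.5, 31.8 and 30.3 normalised CPM in knockout mice and at 59.2, 52.7 and 64.8 in control mice, a log2 fold change of -0.79 (SE 0.164). Got1, the cytosolic aspartate aminotransferase, stood at 126, 115.4 and 128 normalised CPM in knockout mice and at 93.2, 80.2 and 83.2 in control mice. Its log2 fold change was 0.52 (SE 0.122), from 1989 UMIs in 1056 cells. Dnase1l3 and the predicted gene Gm10076 had log2 fold changes of -2.28 (SE 0.430) and -0.63 (SE 0.121). Ky, Chrm3 and Elp4 were positive at 1.55 (SE 0.331), 1.37 (SE 0.304) and 0.79 (SE 0.189).

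**Figure D5:**
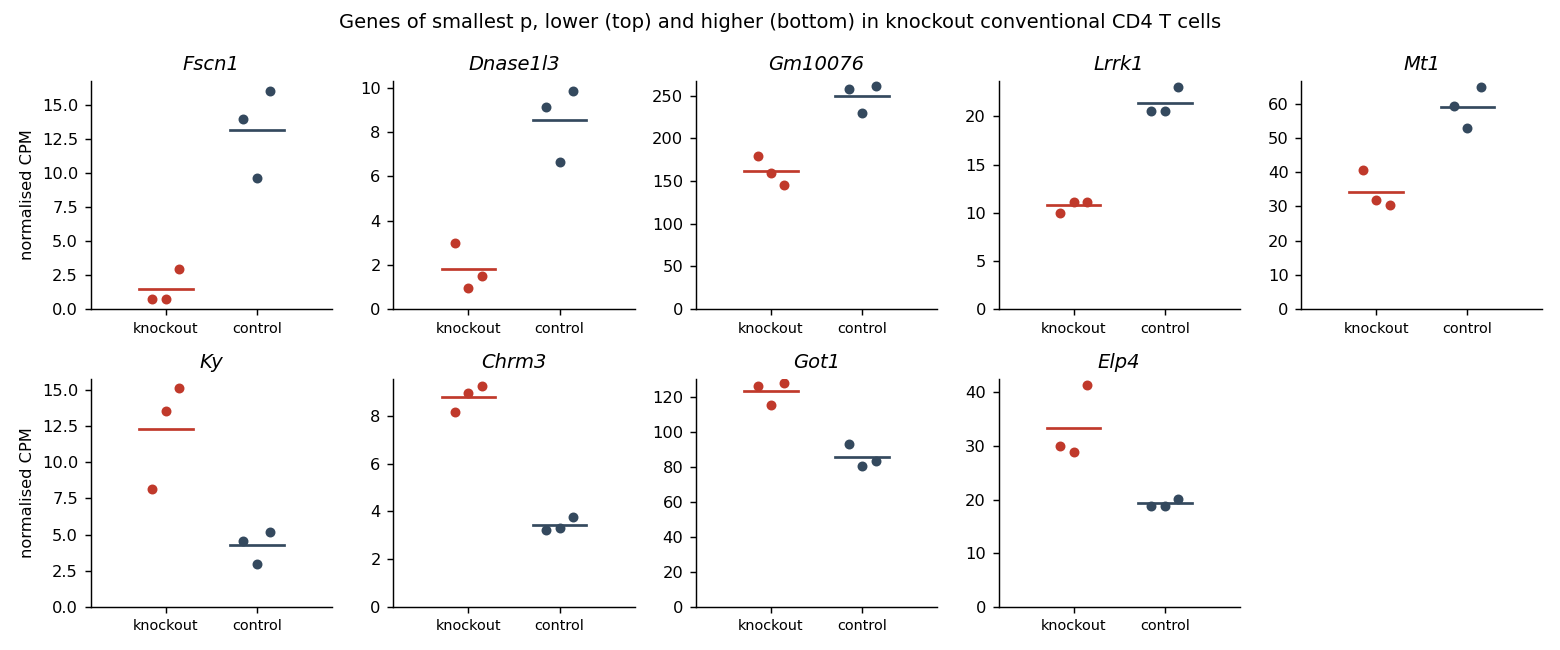
TMM-normalised CPM of genes of smallest p in conventional CD4 T cells, 5 lower and 4 higher in knockout; each point is a mouse and each bar a group mean, with knockout left of control. The groups did not overlap for any of the 9 genes, and none passed edgeR's adjusted threshold, while DESeq2 called Fscn1 and Gm10076.

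In cells with a Cxcr6 UMI 1 of 8245 genes passed edgeR's adjusted threshold (0.0121% called), while 372 (4.51%) had an unadjusted p under 0.05 and DESeq2 called 3 (0.0364%), Ccl4, Kcnq5 and Cxcl10. The gene was Ccl4, which encodes an inflammatory chemokine. It stood at 88.2, 98.1 and 143 normalised CPM in knockout mice and at 272, 252 and 393 normalised CPM in control mice, giving -1.49 as its log2 fold change (SE 0.203), with an adjusted p of 0.00883 in edgeR's model. The groups did not overlap, yet the call rested on few cells. In control mice 749 of 976 Ccl4 UMIs (76.7%) lay in 5 cells, and 520 (53.3%) lay in cells of highest doublet score. Without those cells the log2 fold change was -0.42 with an adjusted p of 1.00 in edgeR's model, and 0 genes were called. Without members holding a dendritic or macrophage marker UMI it was -1.52 with an adjusted p of 0.952 in edgeR's model, again with 0 genes called. Under the narrower definition of the state that was planned first, Ccl4 had a log2 fold change of -0.37 (adjusted p = 0.998 in edgeR's model) and 0 genes were called. It also missed the threshold without knockout 1 and without knockout 2, with adjusted p of 0.103 and 0.219 in edgeR's model. In cells without a Cxcr6 UMI Ccl4 had a log2 fold change of -0.01 (SE 0.237), and the difference between the states was not tested.

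The other leading genes of cells with Cxcr6 did not pass edgeR's adjusted threshold. Kcnq5, a potassium channel gene, stood at 414, 488 and 411 normalised CPM in knockout mice and at 213, 298 and 231 in control mice, a log2 fold change of 0.83 (SE 0.162). Cxcl10, an interferon-induced chemokine, stood at 79.0, 82.1 and 98.2 normalised CPM in knockout mice and at 115.4, 249 and 202 in control mice, a log2 fold change of -1.12 (SE 0.237). Both had non-overlapping groups. Pparg and Mpp7 had log2 fold changes of 1.98 (SE 0.489) and 0.85 (SE 0.222), and Mef2c had one of -2.16 (SE 0.483). Over all members Mef2c had 532 UMIs in 98 cells, with 47.6% of the UMIs in 5 cells and 25% in cells of highest doublet score. Pparg had 210 UMIs in 95 cells and Mpp7 1309 in 546, with 17.6% and 6.19% in 5 cells. Got1 was also higher in this part of the same members. It stood at 119, 111 and 125 normalised CPM in knockout mice and 83.4, 65.9 and 84.3 in control mice. Il23r overlapped in this state, with 41.4, 36.7 and 136 normalised CPM in knockout mice and 156, 145 and 93.0 in control mice, and a log2 fold change of -0.96 (SE 0.576). Without knockout 3 it was -1.77 with an adjusted p of 0.00781 in edgeR's model, without knockout 2 it was -0.61, and without members holding a dendritic or macrophage marker UMI it was -0.46.

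In cells without a Cxcr6 UMI 0 of 9312 genes passed (0% called), 411 (4.41%) had an unadjusted p under 0.05 and DESeq2 called 0 of the 466 genes to which it gave an adjusted p. The mitochondrial gene mt-Nd4l, a subunit of respiratory complex I, stood at 43.3, 49.1 and 33.7 normalised CPM in knockout mice and at 107, 103 and 64.7 in control mice, a log2 fold change of -1.13 (SE 0.208). Fscn1 and Gm10076 were also among the lower genes in this part of the same members. Their log2 fold changes were -3.27 (SE 0.589) and -0.63 (SE 0.130). Chrm3, Glis3 and Ky had log2 fold changes of 2.14 (SE 0.395), 1.52 (SE 0.352) and 1.42 (SE 0.332). Over all members Glis3 had 255 UMIs in 91 cells, with 32.2% of the UMIs in 5 cells and 33.7% in cells of highest doublet score. Chrm3 had 116 UMIs in 55 cells and Ky 159 in 79, with 25.9% and 19.5% in 5 cells.

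The genotype effect did not differ detectably between conventional CD4 T cells and other T cells. Of 13375 genes 0 passed edgeR's adjusted threshold for that difference (0% called), 357 (2.67%) had an unadjusted p under 0.05 and DESeq2 called 0. The contrast of knockout and control in other T cells called 0 of 14534 (0%), with 409 (2.81%) at an unadjusted p under 0.05 and 0 in DESeq2. The smallest p values on the lower side belonged to Zeb2, a regulator of terminal effector cells, with a difference of -0.70 (SE 0.144, adjusted p = 1 in edgeR's model), Clnk with -1.66 (SE 0.347) and Lrrk1 with -0.88 (SE 0.187). Zeb2 stood at 155, 98.2 and 161 normalised CPM in knockout conventional CD4 T cells and at 185, 178 and 170 in control ones. In other T cells it stood at 258, 243 and 284 normalised CPM in knockout mice and at 209, 209 and 212 in control mice, so the groups parted in opposite directions. On the higher side Slit3, Adarb2 and Cacna2d1 rested on 30, 63 and 12 UMIs in conventional CD4 T cells, and in each case 5 cells held at least 75% of them.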

How the data were processed

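The authors' deposited matrices hold raw counts of UMIs per gene and barcode from 6 libraries, written by Cell Ranger 7.1.0 per the file headers, against mm10 per the submitters' processing notes, which also name Seurat 4.1.1. The annotation release is not given in the sources used here; Ensembl identifiers were looked up in GENCODE release M21 (GRCm38) for coordinates.

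Barcodes under 300 genes or over 20% mitochondrial UMIs were dropped. Members were gated as described, with no doublets removed; cells in the top 6% of Scrublet scores per library were left out in an alternative. UMIs were summed per library and tested with edgeR 4.0.16 (R 4.3.3; TMM, filterByExpr, robust quasi-likelihood F-test) with Benjamini-Hochberg adjustment and a threshold of 0.05. The difference between populations used a library block with an interaction term. DESeq2 1.42.0 was the alternative tool. Standard errors were derived from the fold change and its F statistic. Shares were compared by exact two-sided permutation of 3 against 3 mice, whose smallest p is 0.1. The edgeR tests were checked on simulated counts. Of 100 genes changed by a log2 of 1, 66% were called in conventional CD4 T cells, 27% in other T cells and 22% for the difference between populations. Of 100 changed by a log2 of 2, 95%, 73% and 80% were called, with 10, 14 and 7 false calls in the same order. The genes of both sizes were changed together in the same simulated counts, which makes the adjusted threshold easier to pass. Where few genes differ the shares called can be lower, so differences of these sizes and smaller ones can be missed. Other alternatives were leaving out each mouse, no filter on low counts, a replicate block, library size scaling, a term for the numbers in the library names and stricter gates. The split of members by state first planned used a gene that is not reported here. Members were split by Cxcr6 alone instead, which was chosen after results of the planned split were known, and a few other results are not reported here either.

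The members, lists and tests were chosen with earlier results of these data known. Genes were named by rule: gate genes, markers, Sting1 and Il23r; the 5 smallest p in each direction of the genotype contrast where none passed; per list up to 4 of highest level and 2 of smallest p; the genes furthest from other T cells in all 6 libraries at 50 CPM or more; and up to 3 each way in the interaction and in each state.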

Additional observations from a re-analysis of the deposited data

How the results depend on the processing

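In conventional CD4 T cells the count of 0 called genes became 8 in DESeq2, 69 with no filter on low counts, 3 with a replicate block and 0 to 5 when each mouse was left out; the 5 came without knockout 3 and were Fscn1 and 4 neutrophil granule genes (Camp, Ngp, Ltf and Mmp8, named after their values were seen). Leaving out each mouse gave 0 to 1 call in other T cells, the 1 without control 1, and 0 to 12 for the difference between the populations, the 12 without control 1. In cells with a Cxcr6 UMI the count of 1 became 0 to 10 when each mouse was left out (10 without knockout 3, 4 without control 1, 4 without control 2, 0 without knockout 1 and without knockout 2), 3 in DESeq2, 58 with no filter, 2 with a replicate block, and 0 without the top Scrublet scores, without members holding a dendritic or macrophage marker UMI, and under the narrower definition. In cells without a Cxcr6 UMI the count of 0 became 0 to 4 (4 without knockout 3, 2 without control 3, 1 without control 1) and 58 with no filter. Deviations from the group means in same-numbered libraries correlated at -0.24, 0.31 and -0.28 over 4696 genes. Between knockout and control libraries of different numbers the correlations ran from -0.42 to 0.53. These values therefore cannot decide whether the replicate numbers pair the mice.

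The median of the interferon-stimulated list stayed between -0.37 and -0.20 and that of heat shock genes between -0.37 and -0.19 over 17 alternatives each. The Th2 median was 0.43 to 0.50 when each mouse was left out, 0.55 with no filter, 0.28 with at least 2 Cd4 UMIs and 0.54 without members holding a dendritic or macrophage marker UMI. The Th17 median was -0.85 to -0.054 when each mouse was left out (-0.054 without control 1) and -0.050 without those members.

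Left out one mouse at a time, the knockout minus control difference in percentage points ran from -2.03 to 2.07 for the share of gated T cells, from -0.55 to 1.38 for the share of kept barcodes and from 0.467 to 3.51 for cells with a Cxcr6 UMI. Without the top Scrublet scores the log2 fold change of Ccl4 over all members was 0.021. In cells without a Cxcr6 UMI that of Ccl4 ran from -0.19 to 0.24 with each mouse left out. Without members holding a dendritic or macrophage marker UMI the log2 fold change was 0.13 for Sting1 and 0.12 for Cd74. With each mouse left out, Sting1 ran from -0.16 to 0.027 (positive without knockout 3), and the Il23r difference between populations from -0.64 to 0.41 (positive without knockout 2 and, at 0.08, without control 1). The causes were not tested. Counting error covers the UMIs in hand only, and genes with few UMIs in few cells are the least certain.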
